A study of Mus musculus with 6 samples.

Results

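The kinesin motors are described here in LLC (Lewis lung carcinoma) cells, a mouse lung cancer line, whose calreticulin gene Calr was targeted, against cells that received a control guide RNA. The genes were chosen by symbol and by level: every symbol of the form Kif or Kifc followed by a number, with at most a letter after it, was taken, and those whose mean over the 6 libraries reached 10 normalised counts were kept. Of the 55291 symbols in the deposited table, 41 matched and 33 passed. By their best known roles they were placed in 3 classes, 12 mitotic motors, 13 transport motors and 8 other kinesins. The family and its classes were chosen with earlier results of these data known. The level that chose the genes is given below as a description, and each of the 33 had a mean of at least 10 in both groups. Just inside the limit was Kif9 with a mean of 13.6, and just outside it was Kif6 with 5.46.

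Both groups were transduced transiently with plasmids carrying Cas9 and a guide, were kept in culture for 10 days, and were then divided over 3 wells each and collected 48 hours later. The guide was directed at Calr in the Calr KO group (n = 3) and was a control guide in the control group (n = 3), whose genotype the labels give as WT. Neither group received a further treatment, and all libraries carry 1 batch label. Each group is 1 cell population, and nothing in the labels makes the wells independent cultures, so the p-values measure the spread between wells only.

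Kinesins are ATP-driven motors that walk along microtubules, or that shorten microtubules from their ends. Mitotic kinesins build the spindle, move and align chromosomes and complete cytokinesis, and their mRNAs are made mostly late in the cell cycle. Transport kinesins carry vesicles, organelles and mRNAs through the cytoplasm, most of them towards the cell periphery, while the C-terminal kinesins move the opposite way. Calreticulin is a calcium-binding chaperone of the endoplasmic reticulum (ER), an organelle whose spread through the cytoplasm depends on kinesin-1 and microtubules.

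Promoter sequences are shown first, because the mitotic class shared letters there that its selection had not used. Windows from 250 bases before to 50 bases after the start (RefSeq, GRCm38.p6) were at hand for 26 of the 33 genes, 11 of them mitotic, 8 transport and 7 other. The cell cycle genes homology region (CHR) is an element bound by complexes with a MuvB core. Among them is DREAM, which holds mitotic genes silent until late in the cell cycle. The CHR was searched as TTTGAA or TTCGAA on both strands. A CCAAT box, the site of the factor NF-Y, was searched as CCAAT on both strands. The motifs can share at most 1 base, and a match is only a match of letters. In the 80 bases before the start of Kif11, the motor that pushes spindle poles apart, both motifs occur. In the same stretch of Kif18b, a motor that trims the plus ends of spindle microtubules, the CCAAT box occurs 2 times. The same stretch of Kif1c, a transport motor, holds neither motif and is shown for contrast. Capitals mark CHR and CCAAT matches, read 5′ to 3′ on the strand of the gene.
Kif11, chr19:37376302-37376381, plus strand: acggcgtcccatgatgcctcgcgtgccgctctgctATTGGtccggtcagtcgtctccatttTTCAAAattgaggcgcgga
Kif18b, chr11:102925125-102925204, minus strand: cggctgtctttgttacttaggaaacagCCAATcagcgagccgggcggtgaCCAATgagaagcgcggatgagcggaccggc
Kif1c, chr11:70700468-70700547, plus strand: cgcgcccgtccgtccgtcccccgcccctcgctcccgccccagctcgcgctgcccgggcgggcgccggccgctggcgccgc

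The CHR of 7 more sites near a start is printed with its flanks, 30 bases each, so that the core can be compared between genes. Capitals mark only the CHR here. In Kif20b 2 copies of the element follow each other without a gap.
Kif15, chr9:122951050-122951079, plus strand: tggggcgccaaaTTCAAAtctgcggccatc
Kif22, chr7:127042420-127042449, minus strand: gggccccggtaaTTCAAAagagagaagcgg
Kif18b, chr11:102925104-102925133, minus strand: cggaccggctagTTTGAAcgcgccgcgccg
Kifc1, chr17:33890615-33890644, minus strand: cggaggttgaaaTTCAAAagtggcgggtgt
Kif23, chr9:61946780-61946809, minus strand: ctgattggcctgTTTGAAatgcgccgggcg
Kif20b, chr19:34922353-34922382, plus strand: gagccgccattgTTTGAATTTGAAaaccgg
Kif4, chrX:100626072-100626101, plus strand: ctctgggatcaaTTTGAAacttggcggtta

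A CHR match was found in 10 of the 11 mitotic windows (90.9%), in 0 of the 8 transport windows and in 2 of the 7 other windows. Of all 27025 genes with a window, 21.7% held one. Within 40 bases of the start, a distance set after these promoters were seen, the element was in 8 of 11 mitotic windows (72.7%), in 0 of 8 transport windows, and in Kif24 and Kif26b among the others. The share over all genes at that distance was 5.20%. A CCAAT box was in 7 of 11 mitotic, 3 of 8 transport and 2 of 7 other windows, against 41.1% of all genes. Both a CHR within 40 bases and a CCAAT box stood in 6 mitotic windows, in 0 transport windows and in 2 others, against 2.16% of all genes. The mitotic motor without a CHR match was Kif18a, which aligns chromosomes at the spindle equator. These shares are descriptions without a test.

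**Figure D1:**
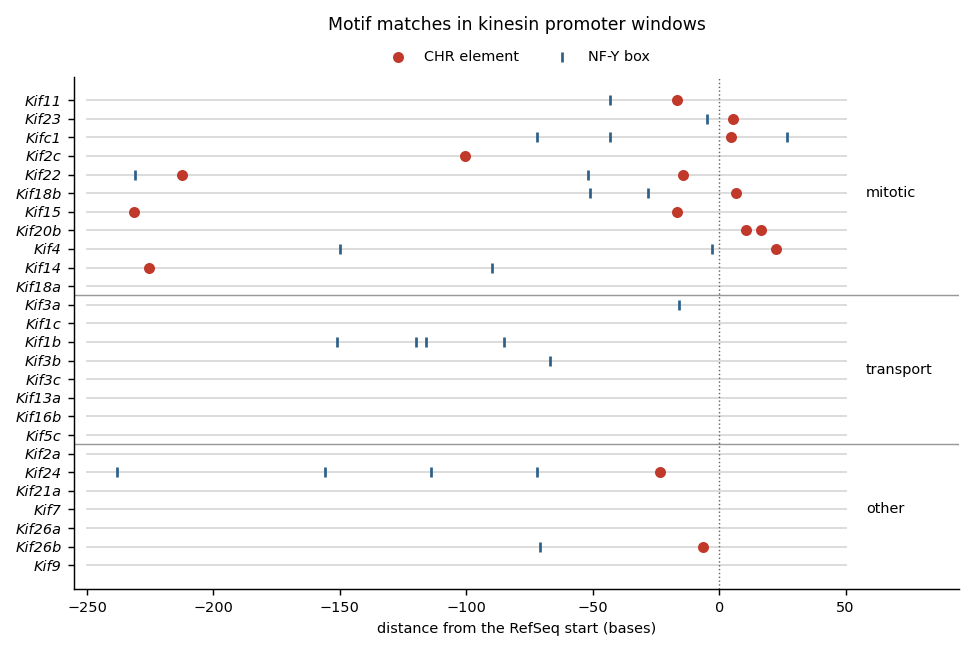
Positions of motif matches in the promoter windows of 26 kinesin genes (rows, by class) against the distance from the RefSeq start in bases (horizontal axis). Red points are CHR elements and blue ticks are CCAAT boxes, labelled NF-Y box. Red points stand in 10 of 11 mitotic rows and in no transport row.

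The columns of the 6 libraries summed to 14040692 to 14099985 normalised counts, a range that the scaling of the values narrows and that does not show the sequencing depth. The worth of 1 read, estimated from the most frequent low value, was 0.945 to 1.04 normalised counts. Of each sum the 33 kinesins made up 0.234% to 0.237%. Calr itself, which encodes the targeted chaperone, was at 10653 ± 426 normalised counts in the control and 4379 ± 141 in the Calr KO libraries (SD, n = 3), and a mean ± SD is given in this way throughout. The level was 2.43-fold lower in Calr KO. Correlations between libraries were 0.985 to 0.986 within a group and 0.984 to 0.986 between groups. The keratins of simple epithelia Krt8 and Krt18 were present at means of 4770 and 309 in Calr KO and 4472 and 279 in control libraries, while the lung and epithelial markers Nkx2-1, Sftpc, Scgb1a1 and Epcam were listed at 0. The 6 lymphocyte markers summed to at most 3.15 normalised counts in any library. The 6 macrophage markers summed to 65.1 to 114 in Calr KO and 75.5 to 97.1 in control libraries, with Adgre1 at 0. For endothelium the sums were 57.0 to 66.5 and 47.6 to 70.6, with Emcn at 0. For fibroblasts they were 2163 to 2521 and 2033 to 2502, mostly from Pdgfra, and none of the 6 was at 0 throughout. Of the 5 tested fibroblast markers 3 lay above 0 and 2 below, and 0 passed. Dcn was at 31.9 ± 3.49 against 15.5 ± 3.03 (limma adjusted p = 0.312), and Col1a2 was at 42.7 ± 7.84 against 53.0 ± 1.33 (limma adjusted p = 0.715), both without overlap in opposite directions. The part of these markers in the kinesin values was not tested.

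Levels of different genes were compared per kilobase of the longest transcript in GENCODE M21, as means over all 6 libraries. In bulk RNA fewer cells expressing a gene and less RNA per cell cannot be told apart. Mitotic motors led. Kif11 was highest at 611 normalised counts per kilobase, followed by Kif23, a subunit of the centralspindlin complex of the midzone, at 589. Kif5b, the ubiquitous heavy chain of kinesin-1, was next at 483 and was the highest transport motor. Kif20a, which carries the chromosomal passenger complex to the midzone, stood at 458, and Kifc1, a minus-end motor that clusters spindle poles, at 443. The mitotic motors ranged from 69.9 (Kif18a) to 611 with a median of 318. The transport motors ranged from 6.41 (Kifc2) to 483 with a median of 125. The other kinesins ran from 4.26 (Kif9) to 338 (Kif2a), with a median of 50.7.

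The choice of length moved the top of this order. Over the union of annotated exons, in place of the longest transcript, Kif11 was at 395 per kilobase and Kif20a at 388, ahead of Kif5b at 365. Kifc1 (306), Kif18b (295) and Kif2a (281) also stood above Kif23, which was at 253. Across the 33 genes both scales gave a similar order (Spearman's rho 0.97, a description over genes). On the first scale Kif2c (373), Kif2a (338), Kif22 (320) and Kif18b (316) followed Kifc1. Kif15 (298) and Kif20b (294) were closer to each other than the spread of their libraries. Kif3a (260), Kif4 (251) and Kif1c (245) came next, and their libraries overlapped too. Kif21a (83.1), Kif21b (88.0) and Kif24 (91.1) lay close together, and Kif7 (18.4) and Kif26a (18.2) did not differ beyond their spread.

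**Figure D2:**
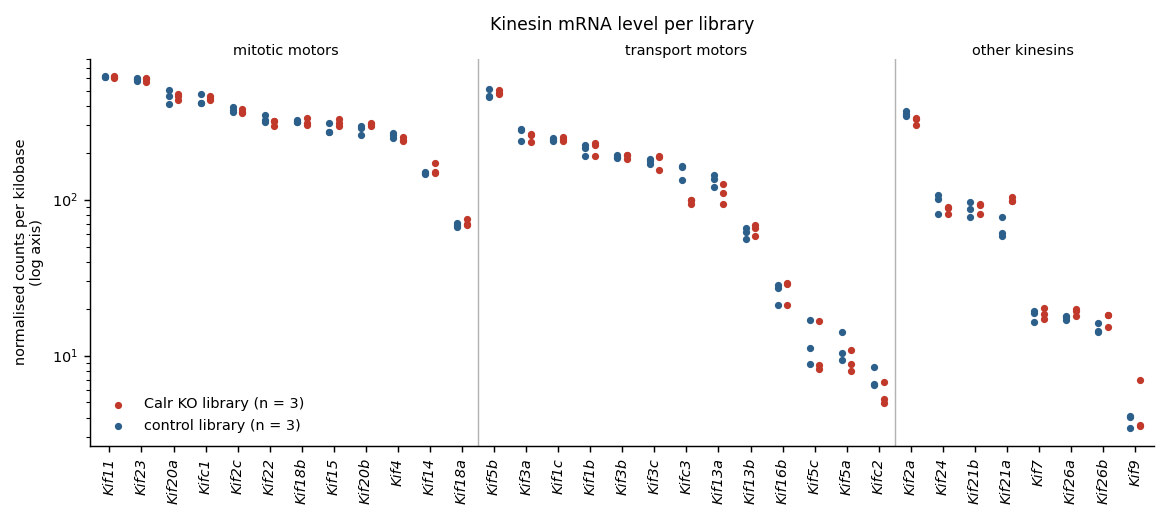
Level of each of the 33 kinesins in every library, in normalised counts per kilobase of the longest transcript on a log axis, ordered by mean within each class. Red points are the 3 Calr KO libraries and blue points the 3 control libraries. The points of the groups are apart in full for Kifc3 and Kif21a and mixed for most other genes.

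The coefficients of variation of the mitotic motors between wells, averaged over both groups, had a median of 4.30%, and Kif11 had the lowest at 1.07%. For transport motors the median was 8.08% and for the other kinesins 8.90%. The highest values belonged to Kif5c (38.3%) and Kif9 (25.7%), with means of 80.5 and 13.6 normalised counts. Kif7, with a mean of 84.2, had 8.28%. The mitotic motors took 62.2% ± 0.35 of all kinesin signal per kilobase in Calr KO and 61.3% ± 0.90 in control libraries. Transport motors took 28.1% ± 0.23 and 29.0% ± 1.23. The shares of the groups overlapped for both classes.

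Calr KO and control libraries were compared with limma on log2(value + 1), over 13199 genes with a mean of at least 10, with Benjamini-Hochberg adjustment over all of them and a threshold of 0.05. All changes below are log2 differences, Calr KO minus control, on this scale, on which low genes appear to change less than they do. Of the 33 kinesins 1 passed, Kifc3 (3.03%), against 0.28% of all tested genes. The family was proposed with earlier results of these data known, by a rule that named Kifc3. That share is therefore only a description and no sign of an excess among kinesins. An unadjusted p under 0.05 was reached by 4 kinesins, Kifc3, Kif21a, Kif2a and Kif13a (12.1%), against 8.88% of all tested genes. The 3 libraries of one group all lay above the 3 of the other for 5 kinesins (15.2%), against 14.8% of all tested genes, so that share was near the background. Among these 5, Kif20b, Kif21a and Kif26a were higher and Kif2a and Kifc3 lower in Calr KO. The median change was 0.01 over the kinesins and 0.0004 over all tested genes, and the median size of change, whatever its sign, was 0.08 and 0.09.

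**Figure D3:**
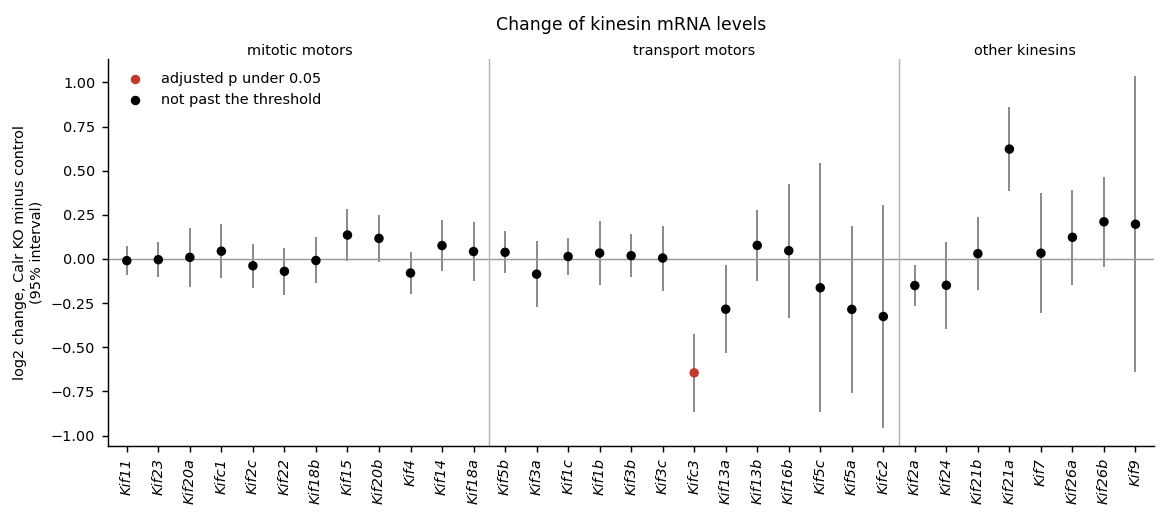
Change of each kinesin, as the log2 difference Calr KO minus control from limma, with its 95% interval, in the same gene order as the plot of levels. The red point, Kifc3 at -0.64, is the only one past the adjusted threshold, and Kif21a at 0.62 stands as far on the other side. The 12 mitotic motors lie between -0.08 and 0.14.

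Among the 12 mitotic motors 0 passed the test, 0 had an unadjusted p under 0.05, and the changes ran from -0.08 (Kif4) to 0.14 (Kif15) with a median of 0.003. The ends of their 95% intervals reached -0.20 and 0.28, the widest reach of any interval in the class. These statements depend on the classes. Kif2a, a relative of the mitotic Kif2c, was placed among the other kinesins. Its change of -0.15 (limma unadjusted p = 0.0183) lies outside the range of the class. Within the spindle pole group, Kif11 was at 2948, 2884 and 2974 normalised counts in Calr KO and 2971, 2954 and 2937 in control libraries. The groups overlapped throughout, with a mean of 2935 ± 46.2 against 2954 ± 16.9. The change of Kif11 was -0.01 (SE 0.036, limma adjusted p = 0.965). Kif15, which works beside Kif11 on parallel microtubules, was at 1517 ± 84.1 against 1381 ± 98.9 and had the smallest p of the class (change 0.14, limma adjusted p = 0.606).

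Kifc1 pulls towards minus ends and holds spindle poles together. It stood at 1059 ± 32.4 in Calr KO and 1029 ± 81.9 in control libraries. A near-identical copy, Kifc5b, lies on the same chromosome and is outside the symbols chosen here. It was listed at 389 ± 18.5 and 380 ± 12.7, and reads of the pair may have been divided between them in counting. Their sum was 1447 ± 34.6 against 1408 ± 69.3, and its groups overlapped too.

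The chromosome motors and regulators of spindle length were 5 genes with changes of -0.08 to 0.04. Kif4, a chromokinesin that compacts chromosome arms, was at 1216 ± 30.8 against 1285 ± 51.3. Kif22, the other chromokinesin, was at 1120 ± 44.6 against 1176 ± 61.2. For the microtubule-shortening Kif2c of the centromere the values were 1045 ± 30.4 and 1074 ± 41.5. Each of these 3 was a little lower in Calr KO by its mean, and in each the groups overlapped. The values of Kif18b and Kif18a were -0.01 and 0.04.

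The motors of the central spindle and of cytokinesis were 4 genes. Kif23 was at 2054, 2005 and 1933 normalised counts in Calr KO and 1967, 2034 and 2006 in control libraries. The highest and the lowest library both belonged to Calr KO. Its change was -0.004 (SE 0.044, limma adjusted p = 0.989). Kif20a was at 1684 ± 69.4 against 1678 ± 170, and Kif14, a motor of the cleavage furrow that binds citron kinase, at 1400 ± 114 against 1325 ± 25.9. Kif20b, which acts at the midbody, was at 1662, 1737 and 1708 in Calr KO and 1659, 1450 and 1608 in control libraries. All its Calr KO libraries were above all controls, though the lowest of them and the highest control lay next to each other. The change of 0.12 did not pass (limma adjusted p = 0.618). Cenpe, a kinetochore kinesin whose symbol lies outside the rule, was at 3674 ± 154 against 3586 ± 345 with a change of 0.04.

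Among the 13 transport motors 1 passed the test, Kifc3, which was lower in Calr KO. By sign alone 7 of the 13 lay above 0 and 6 below. The median change was 0.005 and the range -0.64 (Kifc3) to 0.08 (Kif13b). Without Kifc3 the other 12 ran from -0.33 (Kifc2) upward. The mean log2 level of the mitotic class minus that of the transport class was 1.59 ± 0.08 in Calr KO and 1.45 ± 0.13 in control libraries. That is a difference of 0.14, which ranged from 0.06 without control replicate 3 to 0.18 without Calr KO replicate 3, and the libraries of both groups overlapped. The mean change was 0.02 over the mitotic class and -0.12 over the transport class, or -0.08 without Kifc3. The class medians of change were 0.003 and 0.005, so the difference of the means is not seen in the medians.

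Kifc3 is a C-terminal motor that moves towards microtubule minus ends and is known for work at the Golgi apparatus and at adherens junctions. The gene (ENSMUSG00000031788.14) lies on the minus strand at chr8:95099828-95202812 of GRCm38. It was at 336, 335 and 318 normalised counts in Calr KO and at 560, 450 and 546 in control libraries. All 3 Calr KO libraries lay close together and below all controls, and control replicate 2 was the control nearest to them. The means were 330 ± 10.4 and 518 ± 59.7, and Kifc3 fell 1.57-fold, a change of -0.64 (SE 0.098, 95% interval -0.86 to -0.42, limma adjusted p = 0.0356). Of 17 other settings 10 kept the call. Among those that lost it were a variance prior that does not follow the mean (limma adjusted p = 0.281) and the fits without any 1 library other than control replicate 2. The highest limma adjusted p of those fits was 0.174, without control replicate 3, and the lowest was 0.0175, without control replicate 2.

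Kifc2, the other C-terminal transport motor, was low, at 21.6, 16.1 and 16.9 in Calr KO and 20.8, 21.2 and 27.1 in control libraries. Its groups overlapped, and the change was -0.33 with a wide 95% interval of -0.96 to 0.31.

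**Figure D4:**
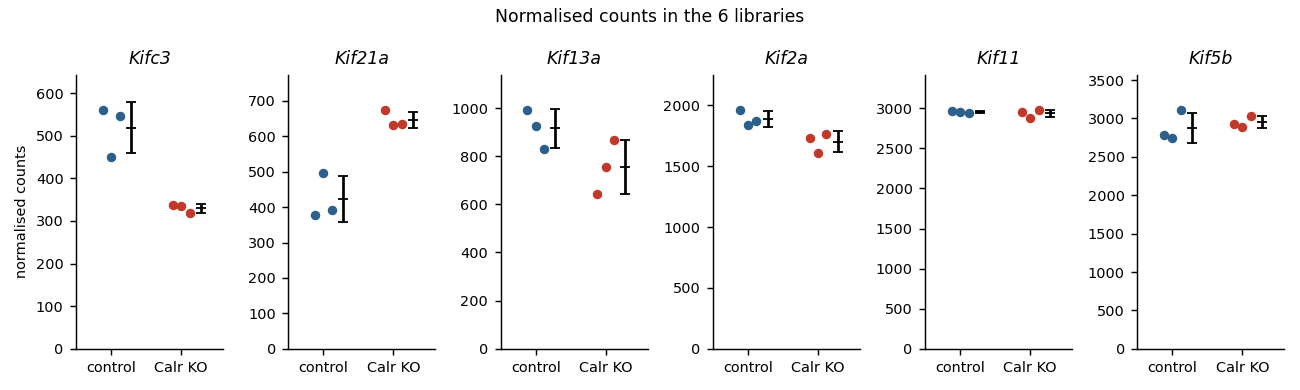
Normalised counts of 6 kinesins in the 3 control (blue) and 3 Calr KO (red) libraries, with the mean and SD as black bars, on vertical axes that start at 0. Kifc3 and Kif21a show separate groups in opposite directions, Kif2a shows separate groups that differ little, and the points of Kif13a, Kif11 and Kif5b overlap.

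Kinesin-1 is the main motor for outward transport of ER, mitochondria and vesicles. Its heavy chain Kif5b was at 2930, 2883 and 3038 normalised counts in Calr KO and 2783, 2743 and 3107 in control libraries. The groups overlapped, with replicate 3 highest in both. The means were 2950 ± 79.8 and 2878 ± 199, and the change was 0.04 (SE 0.053, 95% interval -0.08 to 0.16, limma adjusted p = 0.880). With 1 library left out it ran from 0.004 to 0.09. Kif5b made up 96.0% ± 1.04 of kinesin-1 heavy chain signal per kilobase in Calr KO and 95.3% ± 0.95 in control libraries. The neuronal heavy chains were low. Kif5a was at 57.9 ± 9.18 against 71.2 ± 15.5, and Kif5c at 76.7 ± 32.8 against 84.4 ± 28.5, with replicate 3 highest in both groups at 114 and 116.

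Kinesin-2 drives transport within cilia and of late endosomes. Kif3a was at 818, 829 and 740 normalised counts in Calr KO and 754, 882 and 901 in control libraries, with overlapping groups. Its change was -0.09 (SE 0.083, limma adjusted p = 0.817), and it ran from -0.17 to -0.03 when 1 library was left out. The partners with which Kif3a pairs, Kif3b and Kif3c, had changes of 0.02 and 0.01. Kif17, the homodimeric kinesin-2 of cilia and dendrites, was below the limit with a mean of 0.80.

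Kinesin-3 motors carry vesicles, endosomes and lysosomes over long distances. Of the 5 tested members 4 had changes of 0.01 to 0.08, namely Kif1c, Kif1b, Kif16b and Kif13b. The exception in sign was Kif13a, a motor of recycling endosomes and melanosomes. It was at 643, 754 and 869 normalised counts in Calr KO and 991, 927 and 830 in control libraries. One Calr KO library was above the lowest control. The means were 755 ± 113 and 916 ± 81.1, a change of -0.28 (SE 0.110, unadjusted p = 0.0287, limma adjusted p = 0.505). Without Calr KO replicate 1 the change of Kif13a was -0.17 (limma unadjusted p = 0.110), and without Calr KO replicate 3 it was -0.39.

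The other kinesins serve cilia, signalling and microtubule dynamics, and 0 of the 8 passed the test. Kif21a had the second largest change of the family in size. It encodes a motor that walks to plus ends and halts microtubule growth there. The gene (ENSMUSG00000022629.17) lies on the minus strand at chr15:90933276-91049948 of GRCm38. It was at 674, 633 and 634 normalised counts in Calr KO and 378, 497 and 393 in control libraries. All Calr KO libraries were above all controls, and control replicate 2 was again the nearest. The means were 647 ± 23.0 and 423 ± 64.7, a change of 0.62 (SE 0.105, 95% interval 0.39 to 0.86, limma adjusted p = 0.0634). Its p lay under the threshold in 3 of 17 other settings, with a limit of a mean of at least 1 (0.0479), with no limit (0.0335) and without control replicate 2 (0.0107).

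**Figure D5:**
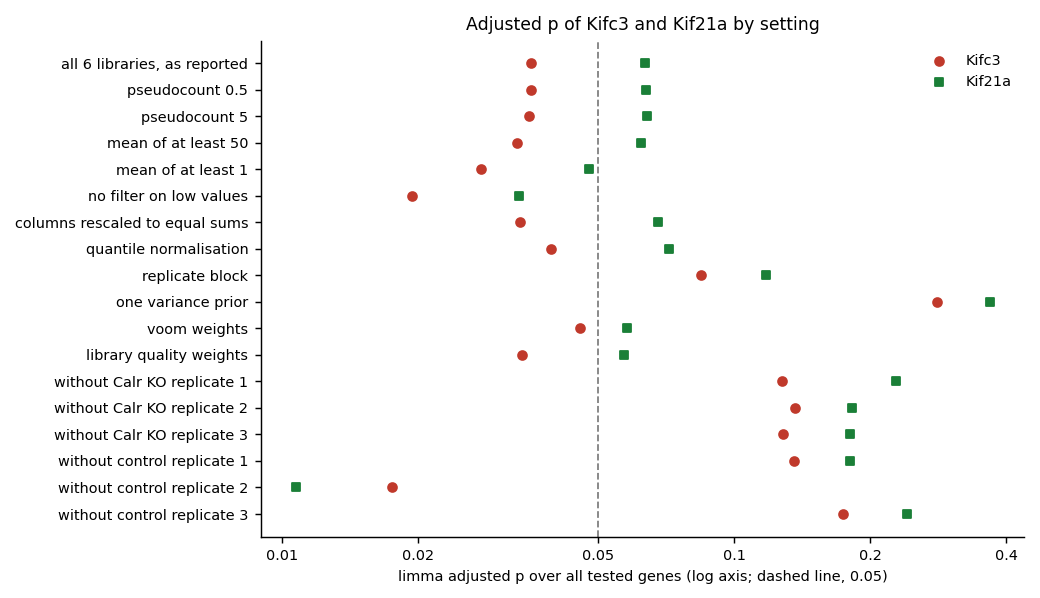
Limma adjusted p over all tested genes for Kifc3 (red points) and Kif21a (green squares), on a log axis, for the reported fit and 17 other settings. The dashed line is the threshold of 0.05. Both genes have their smallest p without control replicate 2, 0.0175 and 0.0107, and both lie right of the line without each of the other libraries.

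The promoter of Kif21a was read for the ER stress response element (CCAAT, 9 bases of any kind, then CCACG), through which the stress factor ATF6 acts together with NF-Y, because the targeted gene encodes an ER chaperone. The 200 bases before the start hold the second part of the element, in capitals, and no CCAAT box.
Kif21a, chr15:91049952-91050151, minus strand: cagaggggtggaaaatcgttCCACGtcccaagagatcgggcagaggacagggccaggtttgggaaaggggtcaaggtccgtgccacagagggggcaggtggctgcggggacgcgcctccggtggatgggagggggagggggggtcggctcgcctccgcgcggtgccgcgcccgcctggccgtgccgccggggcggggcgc

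The full element was in 0 of the 26 kinesin windows and in 0.137% of all genes with a window. CCACG alone, on either strand, was in 13 of the 26 and in 35.5% of all genes. Absence of these letters from the window says nothing about the factors.

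Kif21b, the closest relative of Kif21a, was at 822 ± 66.0 against 806 ± 86.1, a change of 0.03. Kif2a, which shortens microtubules at both ends, was at 1734, 1606 and 1764 normalised counts in Calr KO and 1959, 1835 and 1869 in control libraries. All Calr KO libraries were below all controls. The means were 1702 ± 84.1 and 1888 ± 64.4, a change of -0.15 (SE 0.053, unadjusted p = 0.0183, limma adjusted p = 0.464). The limma unadjusted p of Kif2a was 0.0696 without Calr KO replicate 2, and with control replicate 1 left out it was 0.0656. Its exons share 1229 of 6393 bases (19.2%) with those of Dimt1, an rRNA methyltransferase on the opposite strand whose change was 0.04. With strand use in counting not given in the sources used here, reads from the shared bases cannot be assigned to either gene.

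Kif24, a kinesin that restrains cilium formation at the centriole, was at 493, 453 and 499 in Calr KO and 565, 597 and 449 in control libraries. The lowest library was a control, and the change was -0.15 (SE 0.109, limma adjusted p = 0.758). It was -0.07 without control replicate 2 and -0.27 without control replicate 3. Kif7, a regulator of Hedgehog signalling in the cilium, had a change of 0.03. The paralogues Kif26a and Kif26b had changes of 0.12 and 0.21. Kif26a, at 132 ± 7.03 against 121 ± 2.84, had groups that did not overlap and an interval that spanned 0. Kif9, a motor of motile cilia, was at 22.1, 11.2 and 11.4 in Calr KO and 10.9, 13.1 and 12.8 in control libraries, so that 1 library stood above the other 5.

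Kinesins were also set against each other within each library, as a log2 ratio of their values, for 4 pairs chosen with the changes known. The pairs are relatives, except Kif21a with Kifc3. A two-sided exact permutation test of 3 against 3 libraries cannot go below p = 0.1. Kif21a over Kif21b was -0.34 ± 0.17 in Calr KO and -0.93 ± 0.10 in control libraries, a difference of 0.59 without overlap (exact p = 0.1, adjusted over the 4 ratios 0.133). Kif13a over Kif13b was 0.39 ± 0.22 against 0.75 ± 0.21, a difference of -0.36, also without overlap (exact p = 0.1). The groups of Kif13a alone overlapped. Kif2a over Kif2c differed by -0.11 with overlap (exact p = 0.3). The ratio of the kinesins with the largest changes, Kif21a over Kifc3, was 0.97 ± 0.05 against -0.30 ± 0.38, a difference of 1.27 (exact p = 0.1), and it was above 0 in 1 of 3 control libraries. Kif21a and Kifc3 each separate the groups, in opposite directions, so the separation and the p of their ratio were fixed by the choice. Any ratio without overlap has an exact p of 0.1, and the relatives too were paired with their changes known. The p-values of all 4 ratios are therefore descriptions only.

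The partners of the motors were examined in 4 lists, in which 0 genes passed the test. Of 23 tested genes listed as light chains, cargo adaptors or related factors 1 had an unadjusted p under 0.05 (4.35%, against 8.88% of all tested genes). The median change was 0.03. The gene with that p was Rab3gap1, at 1347 ± 24.5 against 1219 ± 13.7 (change 0.14, limma adjusted p = 0.424). It acts on the vesicle GTPase Rab3 and is itself no light chain or adaptor. Plekhm2, also called SKIP, which couples lysosomes to kinesin-1, had a change of -0.34, with values from 190 to 359 in Calr KO. Mapk8ip1, a scaffold that binds kinesin-1, had a change of 0.11. Of 28 tested spindle and midzone factors 20 lay above 0, against 6617 of all 13199 tested genes, with a median of 0.02. Genes of a list share the same 6 libraries, so these are not independent signs. An unadjusted p under 0.05 was reached by 1 of the 28 (3.57%, against 8.88%). The smallest p belonged to Ska1, a kinetochore subunit, at 225 ± 3.42 against 181 ± 28.8 (change 0.33, limma adjusted p = 0.509). The kinetochore subunits Spc24 and Spc25 followed with 0.18 and 0.24.

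Dynein is the motor that opposes most kinesins. Of 28 tested subunits and regulators of dynein and dynactin 1 was higher and 1 lower at an unadjusted p under 0.05 (7.14%, against 8.88% of all tested genes), with a list median of -0.002. Pafah1b1 (LIS1), which holds dynein on the microtubule, was at 3066 ± 440 against 2457 ± 171 without overlap (change 0.31, limma adjusted p = 0.364). Hook3, an adaptor of dynein, had a change of -0.17, and Dync1li1, a light intermediate chain, had -0.09. Of 26 tested tubulins and microtubule-associated proteins 2 were higher and 1 lower at an unadjusted p under 0.05 (11.5%, against 8.88% of all tested genes), with a median of 0.02. Mapre1 (EB1), which tracks growing plus ends, was at 2970 ± 91.5 against 2528 ± 145 (change 0.23, limma adjusted p = 0.168). Tubb2b, a beta tubulin, had a change of -0.19 and Mapre2 (EB2) one of 0.18.

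A list of proliferation and cell cycle genes, not all of them mitotic, was read beside the mitotic motors. The levels of many of them, but not of all, follow the share of cells in division. Of 18 tested 0 passed, 11 lay above 0 (against 6617 of all 13199 tested genes) and the median was 0.02. An unadjusted p under 0.05 was reached by Top2a (0.06), Cdc20 (0.10) and Cdk1 (0.12), and in each the Calr KO libraries all lay above the controls. Those 3 were 16.7% of the list, where 8.88% of all tested genes had such a p. Groups without overlap were seen in 14.8% of all tested genes. The share of the whole list without overlap is not given here. The mean log2 level of the 18 genes was 11.08 ± 0.006 in Calr KO and 11.06 ± 0.03 in control libraries. The part of these levels in the values of the mitotic motors was not tested.

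The 8 kinesins under the limit entered no test. Kif27, of motile cilia, had a mean of 3.79, most of it from Calr KO replicate 3 at 16.6. Kif6 was between 0.45 and 11.9, with its highest and lowest values both in Calr KO. Kif28 and Kif19a had means of 0.50 and 0.17. Kif1a, the kinesin-3 of axonal transport, Kif12 and the mitotic microtubule-shortening Kif2b were listed at 0 in every library.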

How the data were processed

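RNA from the 6 wells was made into libraries with a SMARTer mRNA kit, per the labels. The deposited values are a signal: gene counts to which the authors applied DESeq2 normalisation, per the labels. In the submitters' processing notes stand DESeq2 1.34.0, Salmon 0.14.1, STAR 2.6.1d and mm10, without roles. The annotation and the strand setting are not given in the sources used here. Values of 100 to 1000 counts were whole multiples of 1 read, within 0.02, in 3.11% to 6.12% of cases, so whole reads were not recovered and no count model was run. The kinesins, classes and lists were chosen with earlier results of these data known. Genes with a mean of at least 10 were fitted as log2(value + 1) with limma 3.58.1 (R 4.3.3), two-sided, its variance prior following the mean. The fit was tested on simulated data with independent libraries, in which only genes of higher count were changed. That does not cover wells of 1 population or changes in genes of low count. Positions and lengths are from GENCODE M21 on GRCm38, in which all 33 kinesins were found. Full values were given for kinesins past the adjusted or unadjusted threshold, for Kifc3 and Kif5b, and for the 2 of highest level per kilobase in each class. From each list came the called genes and up to 3 of smallest p. Kif20b, Kif15, Kifc1, Kifc2, Kif9 and further kinesins were described after their values were seen. Other pseudocounts, limits, scalings, weights, variance priors, a replicate block and leaving out each library were tried. The values of some single genes are left out of the text.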

Additional observations from a re-analysis of the deposited data

How the results depend on the processing

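The count of 37 genes that differed over all tested genes was 35 to 42 with other pseudocounts, limits on low values, scalings and weights. It was 26 with the replicate number as a block, 2 with a variance prior that does not follow the mean, and 20 to 34 when 1 library was left out. The count of 1 kinesin was 2, with Kif21a added, under a limit of a mean of at least 1 and again with no limit. It was 0 with a variance prior that does not follow the mean, 0 with the replicate block, and 0 to 2 when 1 library was left out. Under the replicate block the limma adjusted p of Kifc3 was 0.0844. Deviations of same-numbered wells correlated at -0.056, -0.011 and 0.001, and those of differently numbered wells at -0.044 to 0.053. Whether same-numbered wells share more than a number cannot be told from these values. The cause of these moves was not tested. Changes near 0 turned sign: with 1 library left out, Kif11 ran from -0.019 to 0.0033 (without Calr KO replicate 2), and Kif23 from -0.024 to 0.020 (without Calr KO replicate 3), with 0.0075 without control replicate 2. Kif13a, Kif2a, Kif24, Kif3a, Kif5b, Kif21a and Kifc3 kept their sign in all 17 settings. The difference between the mitotic and transport classes moved by less than 1 SD in every setting run, none of which left out Kifc3. With 3 wells of 1 population per group, the data cannot speak of other knockout populations, and genes of low count such as Kifc2, Kif5c and Kif9 have wide intervals.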

Other observations

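Kifc3 lies on the same chromosome as the targeted gene, 10.3 Mb beyond Calr. The tested genes of chromosome 8 had a median log2 change of -0.039 (745 genes, 65.5% below 0), the second lowest of 20 chromosomes. The lowest was that of chromosome X at -0.056 (70.3% below 0) and the highest that of chromosome 5 at 0.053. Along chromosome 8 the median was -0.030 over 410 genes before Calr, -0.039 over 78 genes between Calr and Kifc3, and -0.072 over 254 genes beyond Kifc3. Over the 12229 genes of other chromosomes it was 0.0032, with 48.9% below 0. By library, the genes beyond Calr had medians of -0.055, -0.071 and -0.062 in Calr KO and -0.0093, -0.013 and 0.016 in control libraries, relative to each gene's mean over the controls. Within 1 Mb of Kifc3, 25 of 34 tested neighbours were below 0, with a median of -0.091. They ran from -0.67 (Gm45853) to 0.31 (Gm45767), and 0 passed the limma test after adjustment. An unadjusted p under 0.05 was reached by 2 of the 34, against 8.88% of all tested genes. Within 1 Mb of Kif21a, 4 of 5 tested neighbours were above 0, with a median of 0.035 and a highest value of 0.61 (Abcd2). The part of position in the values of Kifc3 and Kif21a was not tested.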
